A study of Rattus norvegicus with 13 samples.

Results

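Chemokines are small secreted proteins that draw leukocytes into a tissue. The 9 chemokine genes described here were Ccl2, Ccl7, Ccl3, Ccl4, Ccl5, Ccl11, Cxcl1, Cxcl10 and Cxcl12, out of 14506 genes measured in rat fat. They were chosen by symbol from the platform annotation, with the brightest probe kept per symbol. Each symbol had exactly 1 probe, so brightness removed nothing, and all 9 were measured on all 13 arrays. The symbols and the contrast were named with earlier results of these data in view, so the differences by the father's diet are a description of the chosen genes and support nothing by themselves.

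The study asked whether a father's diet leaves a trace in the fat of daughters that never ate it themselves. High-fat daughters (6 arrays) had fathers fed pellets with 43% fat, and control daughters (7 arrays) had fathers fed standard chow with 9% fat. All daughters were female Sprague Dawley rats, an outbred strain. The mating with chow-fed females took place when the fathers were 15 weeks old, and the daughters were weaned onto chow at 3 weeks and gave fat at 14 weeks. The depot is given as "fat" alone, and the labels do not say which daughters shared a father or litter. P-values therefore measure the spread between these daughters and may be too small if some were sisters. Each daughter is named here by the number in its label, which lay in 619 to 631 (4 high-fat, 3 control) or in 656 to 664 (2 high-fat, 4 control). The meaning of these 2 ranges is not stated.

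Values were log2 levels, so a difference of 1 is a doubling. Array medians lay between 7.66 and 7.72, and precision is limited by how few arrays there were. The fat label was checked against its markers, with Adipoq (adiponectin) at 13.86 ± 0.11 (SD, n = 6) in high-fat and 13.82 ± 0.07 (SD, n = 7) in control daughters. High-fat 629 and 619 and controls 662 and 664 stood apart, with a skeletal muscle marker mean of 12.03, 9.25, 11.98 and 11.83, against 7.16 to 7.31 in the other 9 arrays. Differences of the 9 members are therefore given with and without these 4 arrays. In whole fat, fewer cells of a type and less RNA per cell cannot be told apart.

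Chemokines are grouped by the spacing of their first cysteines into CC and CXC families and act through G protein-coupled receptors. In obese fat, Ccl2 and its relatives are known for recruiting monocytes that become macrophages, Ccl3, Ccl4 and Ccl5 for recruiting T cells and monocytes, and Ccl11 for recruiting eosinophils. Cxcl1 recruits neutrophils, Cxcl10 is induced by interferon and recruits activated T cells, and Cxcl12 is made by stromal cells and retains progenitors and lymphocytes. Many chemokine genes are switched on by the transcription factor NF-kappaB, downstream of cytokines such as TNF and interleukin-1.

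Several members lie side by side in the rat genome. In the RefSeq gene order of assembly GRCr8, Ccl2, Ccl7 and Ccl11 were immediate neighbours on chromosome 10, and Ccl3 and Ccl4 were neighbours on the same chromosome, where Ccl5 also lies. Cxcl10 sat between Cxcl11 and Cxcl9 on chromosome 14, Cxcl1 next to Cxcl2 on that chromosome, and Cxcl12 on chromosome 4.

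The stretch around the transcription start was at hand from RefSeq (GRCr8) for 4 of the 9 members, Ccl7, Cxcl1, Cxcl10 and Cxcl12. The first 3 are shown because each holds letters of a motif tied to chemokine induction. Each runs 5′ to 3′ from 250 bases before to 50 bases after the start. Capitals mark GGGANNTTC, the leading bases of the NF-kappaB consensus, and GAAANNGAA, the core of the interferon-stimulated response element, searched on both strands. Letters of the first motif were settled after these sequences had been seen. Ccl7 is at chr10:67513845-67514144 on the plus strand, Cxcl1 at chr14:17479272-17479571 on the minus strand and Cxcl10 at chr14:15988816-15989115 on the plus strand.
Ccl7: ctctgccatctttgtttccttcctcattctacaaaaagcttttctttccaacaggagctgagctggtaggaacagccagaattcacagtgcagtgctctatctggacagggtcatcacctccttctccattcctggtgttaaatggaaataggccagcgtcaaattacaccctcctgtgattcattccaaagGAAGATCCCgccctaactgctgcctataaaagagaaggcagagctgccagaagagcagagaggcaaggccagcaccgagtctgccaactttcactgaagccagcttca
Cxcl1: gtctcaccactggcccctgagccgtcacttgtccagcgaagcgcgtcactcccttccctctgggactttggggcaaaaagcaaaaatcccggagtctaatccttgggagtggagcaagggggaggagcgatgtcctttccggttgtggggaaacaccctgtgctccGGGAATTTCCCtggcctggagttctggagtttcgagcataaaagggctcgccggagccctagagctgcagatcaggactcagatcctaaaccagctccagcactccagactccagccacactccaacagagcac
Cxcl10: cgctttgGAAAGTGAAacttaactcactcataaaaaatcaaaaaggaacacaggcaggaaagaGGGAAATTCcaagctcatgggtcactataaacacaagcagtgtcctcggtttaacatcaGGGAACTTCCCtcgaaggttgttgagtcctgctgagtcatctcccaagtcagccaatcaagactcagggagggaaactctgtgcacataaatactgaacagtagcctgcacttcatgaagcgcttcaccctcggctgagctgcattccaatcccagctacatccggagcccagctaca

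The Ccl7 promoter matched the NF-kappaB letters at -58 to -50 from the start, on the reverse strand. In Cxcl1 they occurred at -84 to -76 and, overlapping it on the reverse strand, at -82 to -74. Cxcl10 held them at -187 to -179, at -128 to -120 and, overlapping the last, at -126 to -118 on the reverse strand. The interferon letters were found in Cxcl10 alone of these 4 promoters, at -243 to -235. Of 33469 rat promoters of the same length, 4.05% held the NF-kappaB letters and 9.71% the interferon letters. Because the NF-kappaB letters were settled with the member promoters in view, their share cannot be used to judge the matches in the members. A match is a description of letters, not evidence of a bound site, and the Cxcl12 window held neither.

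Levels of all 6 CC chemokines had a lower mean in high-fat daughters and levels of all 3 CXC chemokines a higher one. For none of the 9 did the groups separate or the difference pass limma's test. The groups separated for only 12 of all 14506 genes, so their overlap in the members is usual. Taken as high-fat minus control on the log2 scale, the median difference was -0.30 for the CC members and 0.13 for the CXC members, against 0.03 over all genes. Adjusted p-values over all genes lay between 0.529 and 0.865. Over the whole table limma called 0 of 14506 genes (0%), as did an unmoderated linear model. With no adjustment, 1155 genes (7.96%) had a limma p under 0.05, of which 369 were lower (2.54%) and 786 higher (5.42%), and the unmoderated model gave 1075. The split between higher and lower genes moved with the setting, with 1177 higher and 242 lower after centring each array, 641 and 20 among genes over the median level, 719 and 676 without the 3 arrays of smallest spread, and 879 and 1111 in daughters 619 to 631. It also moved with level. Of genes under the median level 68.3% had a lower mean, with a median difference of -0.05, against 15.6% and 0.09 for genes over it, and 3 of the 9 members (Ccl3, Ccl4 and Cxcl1) lay under it. Among the members 3 had such a p, Ccl2, Ccl7 and Ccl3, all lower, and since the contrast was in view when they were chosen nothing is read from this count.

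**Figure D1:**
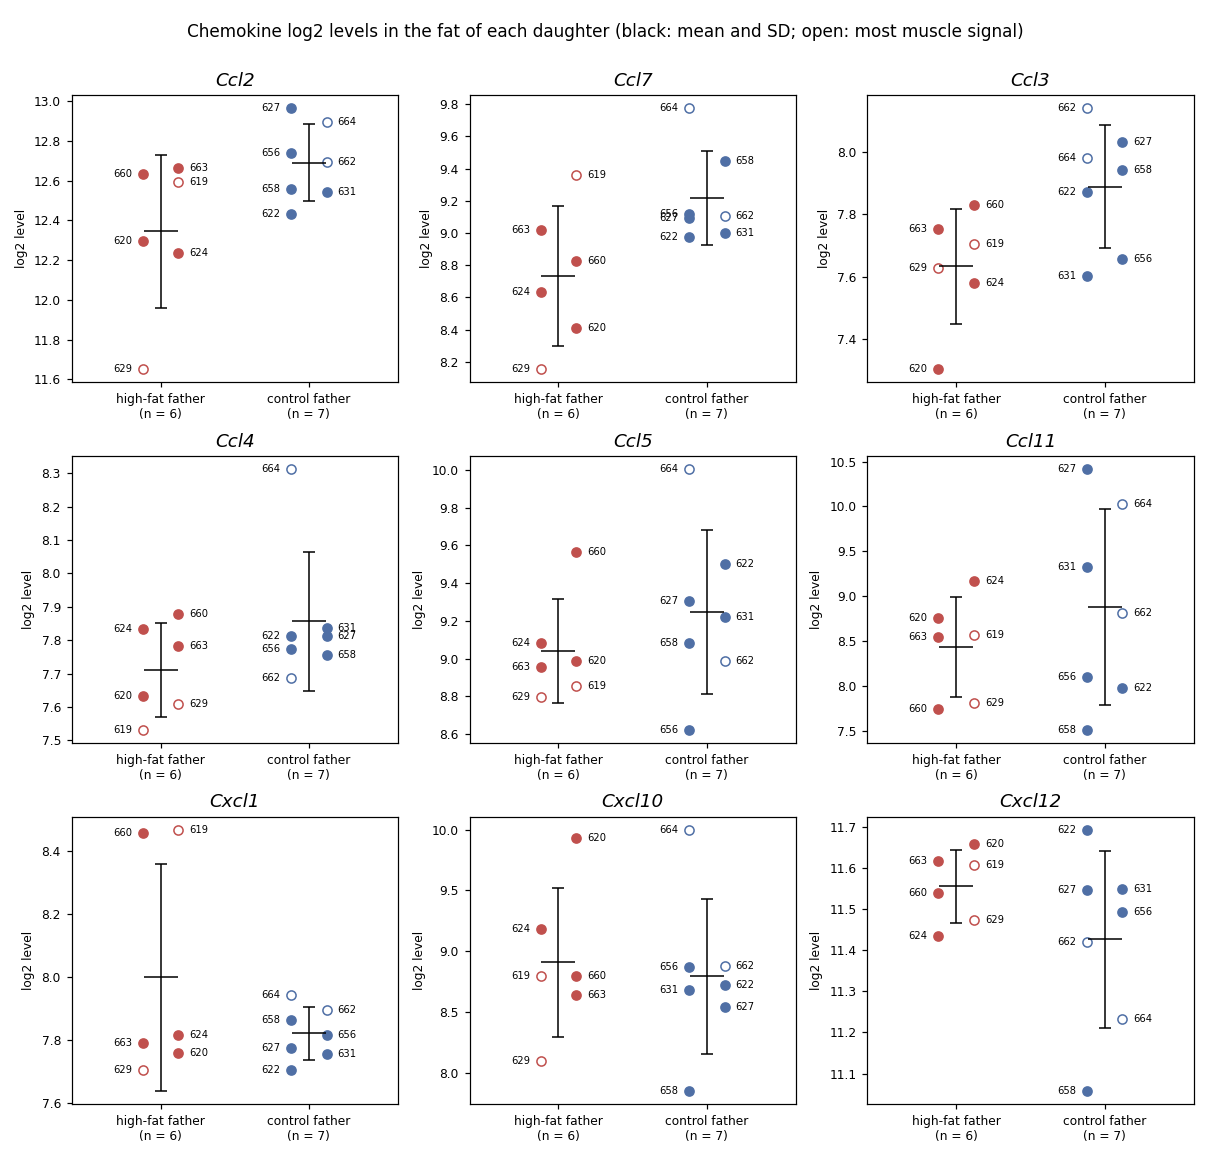
Log2 level of each chemokine (vertical axis, own scale per panel) in every daughter, high-fat fathers (red, n = 6) left of control fathers (blue, n = 7), with mean and SD in black and the 4 arrays of most muscle signal drawn open. The groups overlap in all 9 panels, as they do for all but 12 of the 14506 genes. Control 664 is highest of all for Ccl7, Ccl4, Ccl5 and Cxcl10.

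Ccl2, the classical monocyte attractant, had levels from 11.65 through a median of 12.45 to 12.67 in high-fat daughters, against 12.43, 12.69 and 12.97 in controls. In Ccl2, 4 controls lay above every high-fat daughter, while high-fat 624, 620 and 629 lay below every control. The means were 12.35 ± 0.39 (SD, n = 6) in high-fat and 12.69 ± 0.19 (SD, n = 7) in control daughters, a log2 difference of -0.34 ± 0.15 (SE), or 0.787 of the control level with a 95% interval of 0.630 to 0.984 before any adjustment. High-fat 629, the lowest array, carried much of it, since the difference was -0.21 without that daughter. It was -0.19 without the 4 muscle-rich arrays.

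Ccl7, which shares the receptor Ccr2 with Ccl2, ran from 8.15 through a median of 8.73 to 9.36 in high-fat daughters, against 8.97, 9.11 and 9.78 in controls. High-fat 629, 620, 624 and 660 lay below every control, and high-fat 619 stood above all controls but 664 and 658. Its means were 8.73 ± 0.43 (SD, n = 6) in high-fat and 9.22 ± 0.29 (SD, n = 7) in control daughters, a difference of -0.48 ± 0.18 (SE), or 0.715 of the control level (95% interval 0.547 to 0.936 before adjustment). The lower mean was seen in both number ranges, with -0.38 in daughters 619 to 631 and -0.44 in daughters 656 to 664. Without the muscle-rich arrays it was -0.40, and leaving out single arrays moved it between -0.61 and -0.37.

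Ccl3, an inflammatory attractant of monocytes and T cells through Ccr1, ran from 7.30 through a median of 7.67 to 7.83 in high-fat daughters, against 7.60, 7.94 and 8.14 in controls. For Ccl3, 5 controls lay above every high-fat daughter, and controls 656 and 631 lay within the high-fat range. The means were 7.63 ± 0.18 (SD, n = 6) in high-fat and 7.89 ± 0.20 (SD, n = 7) in control daughters, a difference of -0.26 ± 0.10 (SE), and -0.20 without the muscle-rich arrays. The adjusted p in limma was 0.529 for Ccl2, Ccl7 and Ccl3 alike, the smallest given to any gene.

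Ccl4, a close relative of Ccl3, ran from 7.53 through a median of 7.71 to 7.88 in high-fat daughters, against 7.69, 7.81 and 8.31 in controls. Control 664 was far above every other array, and high-fat 620, 629 and 619 lay below every control. The difference was -0.15 ± 0.10 (SE) with control 664, -0.07 without it and -0.02 without the 4 muscle-rich arrays.

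Ccl5, made in quantity by activated T and NK cells, ran from 8.80 through a median of 8.97 to 9.57 in high-fat daughters, against 8.62, 9.22 and 10.01 in controls. Control 664 was again the highest array and control 656 the lowest, so that all high-fat daughters lay inside the control range. A difference of -0.21 ± 0.19 (SE) became -0.08 without control 664, -0.31 without high-fat 660 and 0.00 without the muscle-rich arrays. In daughters 619 to 631 it was -0.41, and in daughters 656 to 664 it was 0.09.

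Ccl11, or eotaxin, the attractant of eosinophils, varied most of the members, 7.54-fold between the lowest and the highest array. It ran from 7.75 through a median of 8.56 to 9.16 in high-fat daughters, against 7.50, 8.82 and 10.42 in controls. Controls 627, 664 and 631 stood above every high-fat daughter while control 658 stood below them all. The difference of -0.45 ± 0.44 (SE) was about the size of its error, and it was -0.19 without control 627, -0.26 without control 664, -0.68 without control 658 and -0.11 without the muscle-rich arrays.

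Cxcl1, the neutrophil attractant, ran from 7.70 through a median of 7.80 to 8.47 in high-fat daughters, against 7.70, 7.82 and 7.94 in controls. High-fat 619 and 660, at 8.47 and 8.46, stood above the other 11 arrays, which all lay between 7.70 and 7.94. The means of 8.0 ± 0.36 (SD, n = 6) in high-fat and 7.82 ± 0.08 (SD, n = 7) in control daughters therefore differ, by 0.18 ± 0.13 (SE), although the medians were nearly equal. Without high-fat 619 the difference was 0.08, without high-fat 660 it was 0.09, and without the 4 muscle-rich arrays it was 0.17.

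Cxcl10, the interferon-induced attractant of cells bearing Cxcr3, ran from 8.10 through a median of 8.80 to 9.93 in high-fat daughters, against 7.85, 8.72 and 10 in controls. One array of each group, control 664 and high-fat 620, stood far above the rest, and control 658 was lowest. The difference of 0.12 ± 0.31 (SE) had no settled sign: it was -0.09 without high-fat 620, -0.04 without control 658, 0.32 without control 664, 0.28 without high-fat 629 and 0.60 without the 4 muscle-rich arrays.

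Cxcl12, the stromal ligand of Cxcr4, ran from 11.44 through a median of 11.57 to 11.66 in high-fat daughters, against 11.06, 11.49 and 11.69 in controls. All 6 high-fat daughters lay above the control mean, and controls 662, 664 and 658 lay below every high-fat daughter. It was the steadiest member, varying 1.55-fold over the arrays, and its means were 11.56 ± 0.09 (SD, n = 6) in high-fat and 11.43 ± 0.22 (SD, n = 7) in control daughters. The difference of 0.13 ± 0.09 (SE) was 0.07 without control 658 and 0.09 without the muscle-rich arrays.

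**Figure D2:**
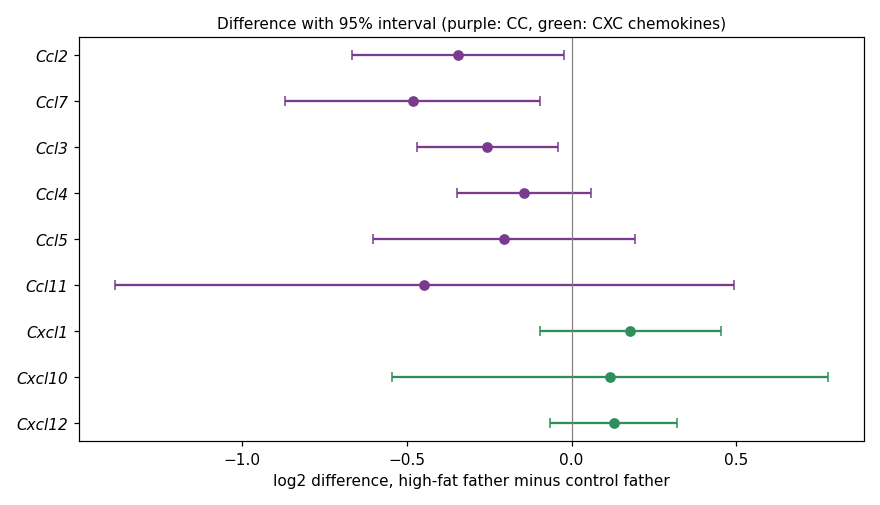
Log2 difference, high-fat father minus control father (horizontal axis), for each chemokine with its 95% interval from limma before adjustment, CC members in purple and CXC members in green. The CC members lie left of 0 and the CXC members right of it, and the intervals of Ccl2, Ccl7 and Ccl3 alone leave out 0.

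The effect of the father's diet was also compared between the 2 number ranges, as a product term in limma. Cxcl12 had the smallest unadjusted p of the 9 members, 0.057, with a difference of -0.05 in daughters 619 to 631 and 0.28 in daughters 656 to 664. No member passed, each with an adjusted p of 0.999, and the whole table gave 0 genes (0%), or 503 genes (3.47%) at an unadjusted p under 0.05. Without high-fat 660 this test called 7 genes. For Ccl2 the differences were -0.45 in the first range and -0.07 in the second, and for Cxcl10 they were 0.36 and -0.18.

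Single daughters stood high or low across several members at once. Control 664 was highest of the 13 arrays for 4 members and above the median for 8, all but Cxcl12. High-fat 629 was above the median for 0 members and lowest for Ccl2 and Ccl7. Control 658 was lowest for Ccl11, Cxcl10 and Cxcl12. Both 664 and 629 were among the muscle-rich arrays, and the part of muscle in these levels was not tested.

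Spread over the arrays was wide for most members. By their SD over the 13 arrays, Ccl11 stood at percentile 99.3 of all genes, Cxcl10 at 98.6, Ccl7 at 96.3, Ccl5 at 94.3 and Ccl2 at 92.6. Cxcl12 was the least variable at percentile 62.8, with Cxcl1 at 85.3, Ccl3 at 79.5 and Ccl4 at 67.9.

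Which members varied together across daughters was tested over all 36 pairs, and 2 pairs passed. Ccl2 and Ccl7, neighbours in the genome, had a Pearson r of 0.80 (permutation p = 0.00093, adjusted p = 0.0178, 13 arrays) and a Spearman rho of 0.71 (permutation p = 0.00827, adjusted p = 0.121). Of all 14505 other genes, Ccl7 ranked 3rd by r with Ccl2, and Ccl2 ranked 16th with Ccl7. With group means removed r was 0.71 (adjusted permutation p = 0.275), and without high-fat 629 and control 627 it was 0.78 (adjusted permutation p = 0.0902). Neither passed, although r without the 2 arrays was close to that over all 13. Within groups r was 0.84 in high-fat and 0.41 in control daughters, and it was 0.84 in daughters 619 to 631 and 0.55 in daughters 656 to 664.

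Ccl4 and Ccl5 had an r of 0.83 (permutation p = 0.00099, adjusted p = 0.0178) and a rho of 0.81 (permutation p = 0.00108, adjusted p = 0.0389). Removing the group means left an r of 0.81 (adjusted permutation p = 0.0389), and r was 0.78 in high-fat and 0.82 in control daughters, 0.81 in the first number range and 0.86 in the second. Without control 664 and high-fat 619, however, it was 0.62 (adjusted permutation p = 0.205) and did not pass. A further 2 pairs had an unadjusted p under 0.05, Ccl7 with Ccl3 (r = 0.62, adjusted permutation p = 0.293) and Ccl2 with Ccl3 (r = 0.56, adjusted permutation p = 0.391). The adjacent genes Ccl3 and Ccl4 had an r of 0.36 and the adjacent Ccl7 and Ccl11 one of 0.28, and neither passed.

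**Figure D3:**
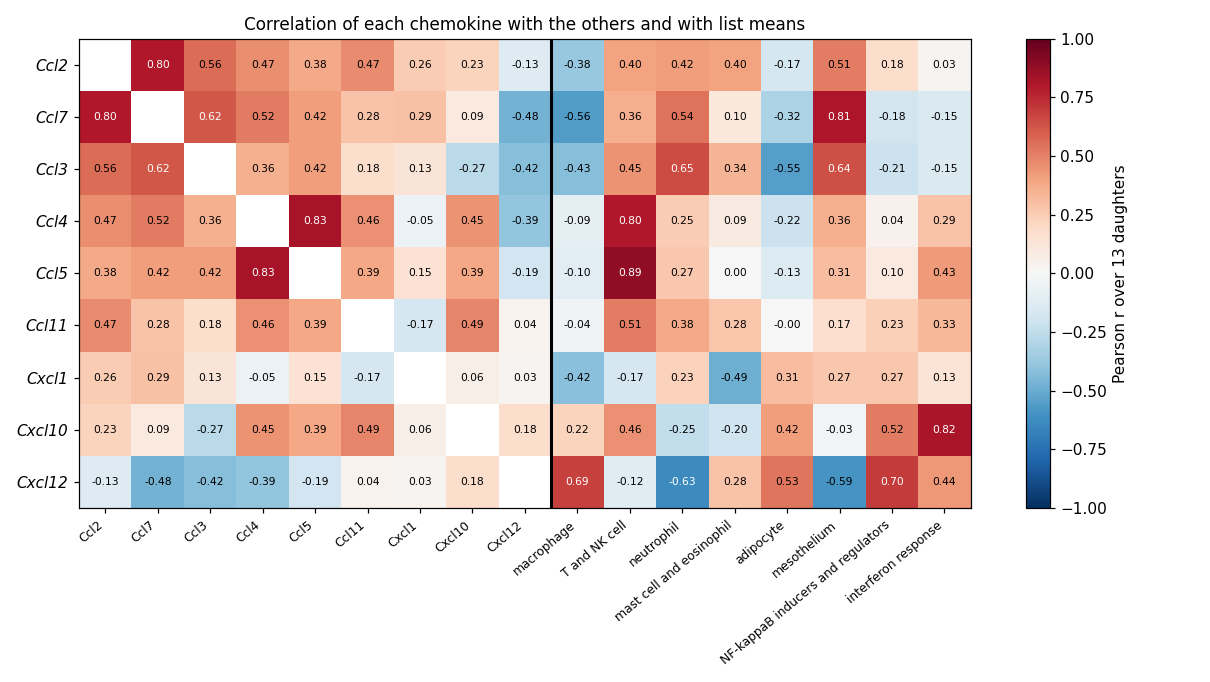
Pearson r over the 13 daughters of each chemokine (rows) with the other members (left of the black line) and with the mean of 8 gene lists (right of it), red for positive and blue for negative. The deepest fields are Ccl2 with Ccl7, Ccl4 with Ccl5, Ccl4 and Ccl5 with T and NK cell markers, Ccl7 with mesothelium markers and Cxcl10 with interferon response genes.

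Members were then set against the mean level of 7 marker lists in each array, 63 relations in all, and 3 passed. Ccl5 followed the T and NK cell markers, with an r of 0.89 (permutation p = 8e-05, adjusted p = 0.00504) and a rho of 0.79 (permutation p = 0.00168, adjusted p = 0.0529). The relation was as strong with group means removed, at 0.90 (adjusted permutation p = 0.0233), and within each group, at 0.81 in high-fat and 0.93 in control daughters. It was 0.93 in the first number range and 0.89 in the second. Without controls 664 and 622, the arrays highest in these markers, r was 0.73 (adjusted permutation p = 0.239) and did not pass.

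Ccl4 followed the same markers less closely, with an r of 0.80 (permutation p = 0.00166, adjusted p = 0.0349) and a rho of 0.66 (permutation p = 0.0152, adjusted p = 0.192). Removing the group means gave 0.76 (adjusted permutation p = 0.066), and leaving out controls 664 and 622 gave 0.59 (adjusted permutation p = 0.333). Its r was 0.82 in high-fat and 0.74 in control daughters, and 0.82 and 0.83 in the 2 number ranges.

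Ccl7 followed the markers of mesothelium, the cell sheet that covers the organs and fat of the abdomen, with an r of 0.81 (permutation p = 0.001, adjusted p = 0.0315) and a rho of 0.86 (permutation p = 0.00033, adjusted p = 0.0208). With group means removed r was 0.78 (adjusted permutation p = 0.0243), and it was 0.77 in high-fat and 0.88 in control daughters, 0.61 in the first number range and 0.99 in the second. Without controls 664 and 658 it was 0.64 (adjusted permutation p = 0.333) and did not pass. High-fat 629, low in Ccl7 for its mesothelial level, was the array whose omission raised r most, to 0.90. Ccl2 had an r of 0.51 with this list.

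The muscle list splits the arrays into 4 high and 9 low ones, so no r is given for it. Macrophage markers, the cells that Ccl2 and Ccl7 draw in, had an r of -0.38 with Ccl2 and -0.56 with Ccl7, and with Cxcl12 one of 0.69, none passing (adjusted permutation p = 0.306 for Ccl7 and 0.158 for Cxcl12). The r with Cxcl12 fell to 0.38 without control 658, and it was 0.88 in control and -0.35 in high-fat daughters.

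After the data had been seen, the members were also set against NF-kappaB and interferon response genes, 18 relations adjusted together. Cxcl10 followed the interferon response genes with an r of 0.82 (permutation p = 0.00044, adjusted p = 0.00792) and a rho of 0.76 (permutation p = 0.00367, adjusted p = 0.0661). Group means removed, r was 0.84 (adjusted permutation p = 0.00864), and it was 0.96 in high-fat and 0.81 in control daughters, 0.79 in the first number range and 0.86 in the second. Control 658 and high-fat 620 lay at the 2 ends, and without them r was 0.67 (adjusted permutation p = 0.238). Cxcl12 had an r of 0.70 with the NF-kappaB genes that did not pass (adjusted permutation p = 0.135) and fell to 0.29 without control 658.

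**Figure D4:**
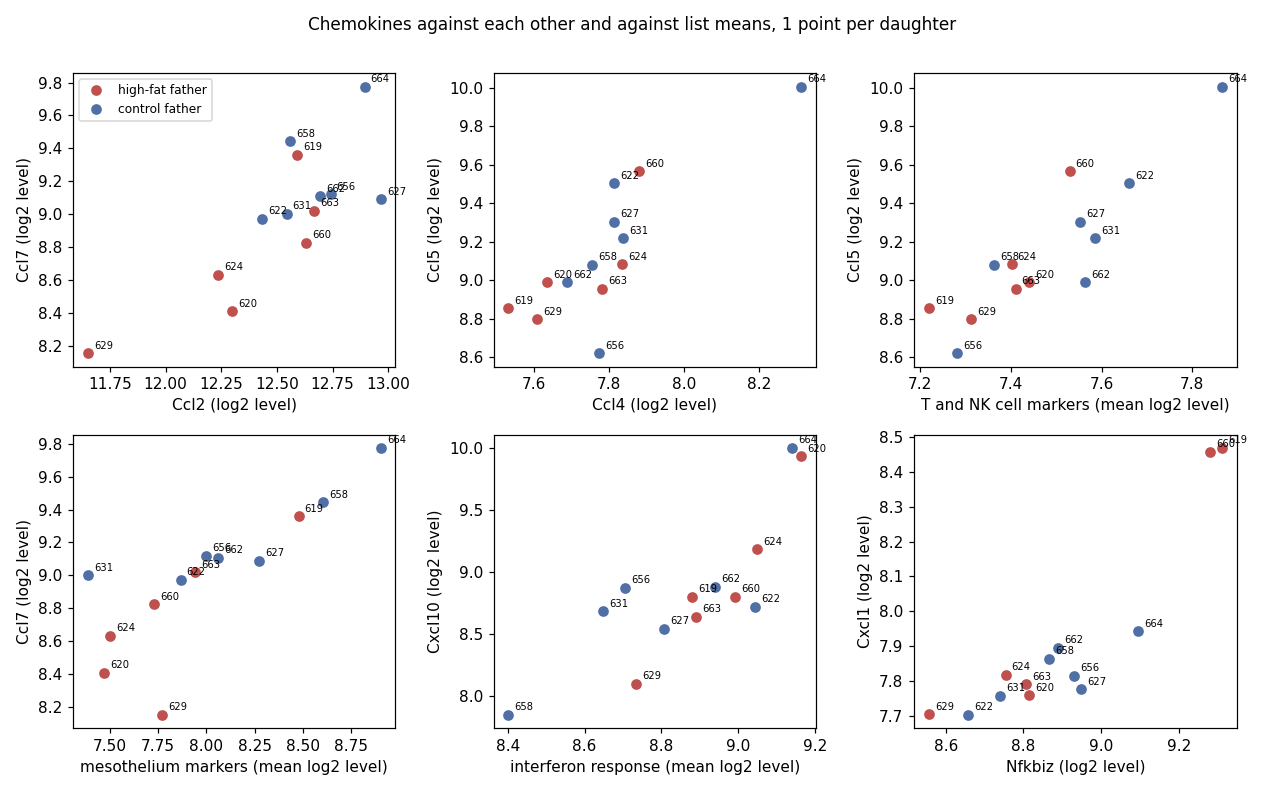
Log2 levels of chemokines (vertical axes) against another member, a list mean or Nfkbiz (horizontal axes), 1 numbered point per daughter, high-fat father in red and control father in blue. Control 664 sits at the upper right for Ccl7, Ccl5 and Cxcl10, and high-fat 619 and 660 stand alone at the upper right of Cxcl1 against Nfkbiz.

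The genes most like each member over the 13 arrays are given as a description by Pearson r. Other members and names that are only locus numbers (LOC, RGD) were left out of this ranking. For Cxcl1 the most alike was Nfkbiz, an inducible NF-kappaB cofactor, at 0.90, and 0.82 without high-fat 619 and 660, where Nfkbiz stood at 9.31 and 9.28 against 8.56 to 9.09 elsewhere. For Ccl5 they were Cd6 (0.92), Gpr174 (0.90) and Stat4 (0.89), of which Cd6 is a T cell surface protein and Stat4 a transcription factor of T and NK cells. Il6, the cytokine interleukin-6, led for Ccl4 at 0.87, with Cd6 (0.87) and the leukocyte integrin Itgal (0.87) next, and Cd6 had 0.36 without control 664 and high-fat 619.

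Slc51a (0.91), Egfl6 (0.91) and Fgf9 (0.90) were most like Ccl7, and stayed at 0.84, 0.92 and 0.91 without high-fat 629 and control 664. Egfl6 is a secreted matrix protein and Fgf9 a growth factor. Cxcl10 was most like Spry1 (0.92), an inhibitor of growth factor signalling, and Rap2a (0.89), a small GTPase. Cxcl12 was most like Gpr160 (0.92), P2ry14 (0.89) and Podxl (0.89), the sialoprotein podocalyxin. Ccl2 was most like Kcnab2 (0.82), Ccl3 like Slc5a11 (0.85), and Ccl11 like RT1-DOb (0.86), a class II histocompatibility chain.

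Other chemokines leaned lower in high-fat daughters, with 0 of 26 measured past the adjusted threshold and 0 at an unadjusted p under 0.05. Of these, 19 had a lower and 7 a higher mean, with a median log2 difference of -0.07, against 0.03 over all genes, of which 42% were lower. Since 16 of the 26 lay under the median level, the nearer comparison is with such genes, of which 68.3% were lower, with a median of -0.05. The 13 other CC genes (10 lower, 3 higher) had a median of -0.10, and the 11 other CXC genes (8 lower, 3 higher) one of -0.07, so both families had a median below 0. Smallest in p were the differences (± SE) of Ccl17 (-0.10 ± 0.05), Ccl25 (-0.13 ± 0.08) and Ccl22 (-0.14 ± 0.09), where Ccl17 and Ccl22 are ligands of Ccr4 and Ccl25 is an attractant of gut and thymus. Ccl21, the lymph node attractant of cells bearing Ccr7, was named after its values were seen, because its difference of -1.08 ± 0.71 (SE) was the largest of the list. It ran from 6.65 to 10.64 in high-fat and from 6.84 to 11.03 in control daughters, so the groups overlapped. Control 662 was highest at 11.03, followed by control 656 and high-fat 629, both at 10.64. High-fat 620 was lowest at 6.65, followed by control 664 at 6.84. Without the 4 muscle-rich arrays the difference was -1.75. Without those arrays it was -0.12 for Ccl17, -0.13 for Ccl25 and -0.18 for Ccl22.

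Of 16 measured chemokine receptors, 13 had a lower and 3 a higher mean, with a median of -0.06 and 0 past either threshold, and 11 of them lay under the median level. Of all genes under that level 68.3% were lower, with a median of -0.05. Cxcr3, the receptor of Cxcl10 on T cells, was at 7.82 ± 0.16 (SD, n = 6) in high-fat and 8.0 ± 0.18 (SD, n = 7) in control daughters. Cx3cr1, the fractalkine receptor, differed by -0.13 ± 0.07, and Ccr7 by -0.11 ± 0.06. Ccr2, the receptor of Ccl2 and Ccl7 on monocytes, was at 11.66 ± 0.31 (SD, n = 6) in high-fat and 11.66 ± 0.71 (SD, n = 7) in control daughters. The receptors of the other members, named for their ligands, were also close: Ccr1 differed by 0.01 ± 0.09, the eotaxin receptor Ccr3 by -0.05 ± 0.09 and Cxcr4 by 0.00 ± 0.08. The neutrophil receptor Cxcr2 differed by 0.15 ± 0.15, and Ackr3, which takes up Cxcl12 without classical signalling, by -0.12 ± 0.08. Single arrays moved both, with Cxcr2 at 0.06 without control 658 or high-fat 624, 0.08 without high-fat 619 and 0.23 without high-fat 629, and Ackr3 at -0.05 without high-fat 624. Without the muscle-rich arrays Cxcr3 differed by -0.08 and Ccr2 by 0.27.

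**Figure D5:**
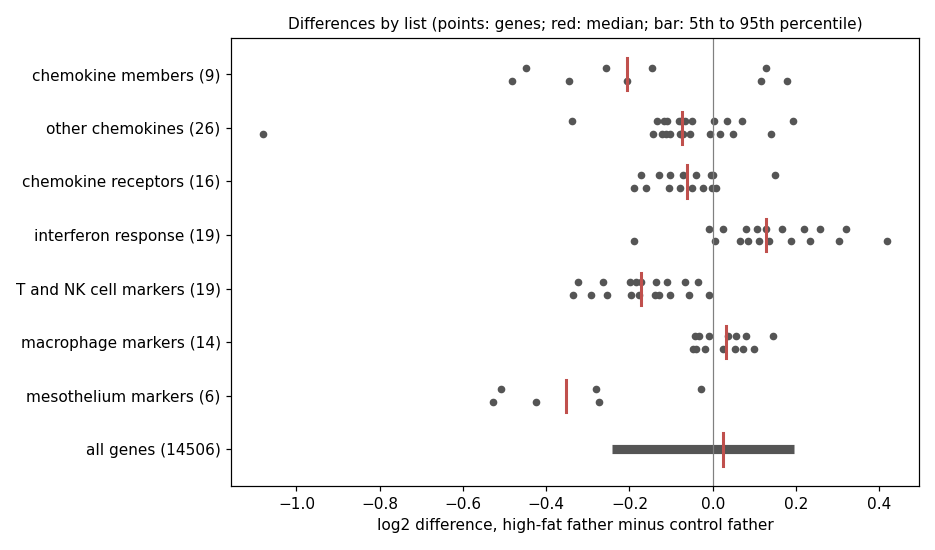
Log2 difference, high-fat father minus control father (horizontal axis), of every measured gene in the chemokine members and 6 other lists (points), with each list's median in red, and the 5th to 95th percentile of all 14506 genes as a bar. The medians of the members and of the mesothelium and T and NK cell lists lie left of 0 and that of the interferon list right of it.

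NF-kappaB and interferon response genes had higher means by count, none past the adjusted threshold, as did most genes over the median level. Of all genes over it 15.6% were lower, with a median of 0.09. Of 19 measured NF-kappaB inducers and regulators, 15 were higher and 4 lower, and 5 lay under the median level. Their median was 0.03, equal to that of all genes and below that of genes over the median level. Chuk, a kinase that activates the pathway (0.21 ± 0.09), was the 1 gene of this list at an unadjusted limma p under 0.05. Of 19 measured interferon response genes 17 were higher and 2 lower, with a median of 0.13, and 4 of the 19 lay under the median level. Rsad2 (0.42 ± 0.10), an antiviral protein, and Stat2 (0.22 ± 0.10), a transducer of interferon signals, had an unadjusted limma p under 0.05. Stat2 differed by 0.15 without control 658. With the SD of each array as a covariate, Stat2 differed by 0.09, Chuk by 0.06 and Rsad2 by 0.35. The interferon list mean ran from 8.73 through 8.94 to 9.16 in high-fat daughters, against 8.40, 8.81 and 9.14 in controls, with the groups overlapping.

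Marker lists of the cells that make or answer chemokines are given beside the differences, and their part in them was not tested. All 19 T and NK cell markers had a lower mean in high-fat daughters, with a median of -0.17, and 2 of them, Cd3d (-0.18 ± 0.07) and Klrb1 (-0.20 ± 0.09), had an unadjusted p under 0.05. Of the 19, 16 lay under the median level, and of all genes under it 68.3% were lower, with a median of -0.05. Their list mean ran from 7.22 to 7.53 in high-fat and from 7.28 to 7.86 in control daughters. All 6 measured mesothelium markers were lower, with a median of -0.35, led by the keratin Krt18 (-0.27 ± 0.12), and 3 of the 6 lay under the median level. Their list mean ran from 7.47 to 8.48 in high-fat and from 7.38 to 8.90 in control daughters.

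Of 14 measured macrophage markers, 8 were higher and 6 lower in high-fat daughters, with a median of 0.03. Only 1 of them lay under the median level, and of all genes over it 15.6% were lower, with a median of 0.09. The macrophage list mean ran from 10.22 to 10.46 in high-fat and from 10.002 to 10.64 in control daughters. Cd68, a lysosomal protein of macrophages, differed by 0.06 ± 0.14, and Cd14, the lipopolysaccharide co-receptor, by 0.14 ± 0.09. Of 10 mast cell and eosinophil markers, the cells answering Ccl11 among them, 9 were lower, with a median of -0.11, and Hdc, the histamine-forming enzyme, differed by -0.23 ± 0.08. Of 9 neutrophil markers 7 were lower, with a median of -0.03. Of 12 adipocyte markers 11 were higher, with a median of 0.13, and Fabp4, the fatty acid carrier of adipocytes, differed by 0.20 ± 0.06. Of 6 B cell markers 4 were lower, with a median of -0.12, and Fcrla, a B cell protein, differed by -0.28 ± 0.12. All 8 endothelium markers were higher, with a median of 0.09. Of 11 progenitor and fibroblast markers, cells that make Cxcl12, 7 were lower and 4 higher, with a median of -0.01, and Fap, a fibroblast surface protease, differed by 0.37 ± 0.17. None of these genes passed limma's test over all genes. Under the median level lay 5 of the 6 B cell, 8 of the 9 neutrophil and 7 of the 10 mast cell and eosinophil markers. Of all genes under it 68.3% were lower, with a median of -0.05. In the adipocyte, endothelium and progenitor and fibroblast lists 0 genes lay under it, and of all genes over it 15.6% were lower, with a median of 0.09.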

How the data were processed

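Biotin-labelled cRNA from the fat of 13 daughters, 6 with high-fat and 7 with control fathers, was hybridised to 1 Affymetrix array each. Log2 values of 29214 probes were deposited, made by the authors with RMA (background correction, normalization between arrays and probe summary) and Partek, per the submitters' processing notes. Their versions, any filter and the genome build were not given in the sources used here. RMA pulls arrays toward 1 distribution, and detection per probe was not assessed. Probes with 1 symbol in the platform annotation were used (15310 of 15633 listed, with 13581 not listed), and the brightest probe of a gene was kept, which left 14506 genes.

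Groups were compared with limma 3.58.1 (lmFit, eBayes) in R 4.3.3, two-sided, without covariates, with p-values adjusted over all genes by Benjamini-Hochberg and called at 0.05. Correlations used 100000 permutations, two-sided, adjusted over 36 pairs, 63 member and list relations, or 18 added relations. The fit was tested on simulated data. Members and lists were chosen with earlier results of these data known. Named genes were the members, up to 3 genes of each list with the smallest p, the 3 genes most alike each member, and Adipoq, Lep, Ucp1 and Cd68. Ccl21, Nfkbiz and the receptors of the members were named outside the list rule. The depot and array batches were not given. Alternatives covered normalization, dim genes, probe summary, variance models, covariates, number ranges and omitted arrays.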

Additional observations from a re-analysis of the deposited data

Results flagged for a closer look

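In each of the 9 chemokines and both groups, 18 checks in all, the most extreme array was set against the others by its gap to the nearest array over the range of the group, of which chance flags about 1 in 20. Ccl4 in control 664 was far above the other controls, at a log2 level of 8.31, with the next control at 7.84, a gap of 0.763 of the range against a limit of 0.568 for 7 arrays. Ccl5 in high-fat 660 was above the other high-fat daughters, at 9.57, with the next at 9.08, a gap of 0.628 of the range against a limit of 0.625 for 6 arrays. Control 664 was also among the 4 arrays with most muscle signal, and it had the highest T and NK cell marker mean of the 13 arrays, 7.86. High-fat 660 had the highest such mean of its group, 7.53.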

How the results depend on the processing

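Between high-fat and control daughters, no gene passed an adjusted p of 0.05 in limma under any alternative or array left out, and 0 passed an adjusted p of 0.1. Of 1010 differences recomputed for 38 named genes under 14 other settings and 13 single omissions, 0 passed and 61 had the other sign. Ccl2, Ccl7, Ccl3, Ccl4, Ccl11 and Cxcl1 kept their sign throughout. Genes at an unadjusted limma p under 0.05, 1155 in all, numbered 508 when high-fat 624 was dropped, 591 for 619, 593 for 620 and 2508 for 660, and 682, 713 and 1774 when control 658, 631 or 622 was dropped. They numbered 2179 with array weights, 408 with the spread and 611 with the number range of an array as covariate, 550 without the muscle-rich arrays, 1990 in the first range alone and 135 in the second, and 661 of the 7253 brighter genes. The test between number ranges called 0 to 7 genes with 1 array left out, the 7 without high-fat 660. Pairs of members passing were 1 with group means removed and 0 without the 2 farthest arrays, and list relations 0 without those. Signs turned without the 4 muscle-rich arrays for Ccl5 (0.00255), Ccr1 (-0.118), Ccr2 (0.27) and Ccr3 (0.0317). They turned in daughters 656 to 664 alone for Ccl5 (0.0860), Cxcl10 (-0.18), Cx3cr1 (0.000425), Ccr2 (0.37) and Ccr3 (0.0844). In daughters 619 to 631 alone they turned for Cxcl12 (-0.0528), Ccr1 (-0.0358), Cxcr4 (-0.0350), Cd68 (-0.0836), Adipoq (-0.00597) and Lep (-0.17). With array spread as a covariate they turned for Cxcl10 (-0.16), Ccr3 (0.00532), Cxcr2 (-0.0124) and Cd68 (-0.0651), and without the 3 arrays of smallest spread for Cxcl10 (-0.0731), Cxcr4 (-0.0555), Nfkbiz (-0.0551) and Cd68 (-0.0294). Quantile normalization again turned Ccr3 (0.0374) and Nfkbiz (-0.00159), centring turned Ccr2 (0.0203), array weights turned Ccr1 (-0.0186) and Nfkbiz (-0.000207), the number range as a covariate turned Ccr1 (-0.00765), and the muscle mean as a covariate turned Cxcr4 (-0.00563). Leaving out single arrays gave -0.0887 to 0.32 for Cxcl10, -0.0711 to 0.0544 for Ccr1, -0.26 to 0.11 for Ccr2, -0.0844 to 0.00348 for Ccr3, -0.0267 to 0.0663 for Cxcr4, -0.0323 to 0.12 for Nfkbiz, -0.0335 to 0.14 for Cd68, -0.0187 to 0.35 for Lep and -0.14 to 0.87 for Ucp1. The cause of these turns was not tested. No paired analysis was possible because the groups share no sample number. Signal over background was not assessed, which limits dim probes.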
